A study of Homo sapiens with 12 samples.

Results

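The genes described here carry peptides to the cell surface on MHC class I molecules or, in the case of CD274, encode PD-L1. The members were HLA-B, HLA-C, HLA-E, B2M, TAP1, TAP2, TAPBP, CD274 and NLRC5, taken by gene name from a table of 20212 protein-coding genes. The 9 names matched 10 rows, since TAP2 stood on a second row that is described separately below. Of the 9 members, 8 had enough footprint and total RNA counts to be tested, and CD274 had no footprint in any library.

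PANC-1 is an established human cell line from a cancer of the pancreatic duct. Cultures received either DMSO, the solvent control, or 50 nM rapamycin, which inhibits the mTORC1 kinase complex, for 60 min. The labels do not give the time at which the DMSO cultures were collected. Each treatment had 3 cultures, labelled as biological replicates, and each culture gave 1 library of ribosome-protected fragments (RF, the pieces of mRNA that ribosomes shield from nuclease) and 1 of total RNA. The 6 cultures therefore gave 12 libraries, and all of them came from the same cell line with no genetic change. Translational efficiency (TE) is used here for RF relative to total RNA.

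MHC class I molecules consist of a heavy chain, such as HLA-B, HLA-C or HLA-E, bound to beta-2-microglobulin, the product of B2M. TAP1 and TAP2 form the transporter that moves peptides made by the proteasome into the endoplasmic reticulum, and tapasin, the product of TAPBP, holds empty heavy chains at that transporter while they are loaded. Loaded molecules are shown to CD8+ T cells at the cell surface, and HLA-E is also read by an inhibitory receptor of NK cells. NLRC5 is the transcriptional activator of class I genes, and PD-L1 on a tumour cell engages the inhibitory receptor PD-1 on T cells.

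The RF libraries held between 278835 and 1574723 counts and the total RNA libraries between 78081241 and 94293744. Where a gene had no count, up to 3 counts remain possible, or 2.03 to 9.93 CPM per RF library and at most 0.0385 CPM per total RNA library. CPM are counts relative to library size, scaled by TMM within a library type. The limit of 3 counts covers counting error only. DMSO total RNA libraries 1 and 2 had counts on 16840 and 16858 genes, against 19751 to 19847 in the other 4. The typical spread between cultures, edgeR's biological coefficient of variation, was 54.9% for RF and 5.31% for total RNA. The duct keratins KRT8, KRT18 and KRT19 were at 1963 to 3630 CPM of total RNA. The other duct markers were lower, with SOX9 at 82.4 to 93.2, EPCAM at 7.31 to 8.27 and KRT7 at 5.41 to 6.90 CPM. The leukocyte markers PTPRC, HLA-DRA and CD3E were each at or below 0.621 CPM, while CD68 was at 104 to 121 CPM and CD74 at 3.94 to 5.55 CPM.

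HLA-B, HLA-C and HLA-E are close paralogs and only uniquely aligned reads were counted. The stretches that they share therefore bear on the values of these genes below. HLA-E (chr6:30457286-30461971, plus strand), HLA-C (chr6:31236526-31239907, minus strand) and HLA-B (chr6:31321649-31334844, minus strand) lie in the MHC of GRCh37. TAP2 (chr6:32789610-32806516), TAP1 (chr6:32812986-32821593) and TAPBP (chr6:33267471-33282061), all on the minus strand, lie in the same region. The members outside it are CD274 (chr9:5450503-5470566, plus), B2M (chr15:45003556-45011049, plus) and NLRC5 (chr16:57023397-57117443, plus). A coding stretch about as long as a footprint shows how alike the heavy chains are. The 3 lines below give it 5′ to 3′ on the coding strand, from chr6:31324652-31324681 for HLA-B, chr6:31239563-31239592 for HLA-C and chr6:30457556-30457585 for HLA-E, each within an exon, with capitals marking a base that differs from HLA-B.
HLA-B: gagccccgcttcatctcagtgggctacgtg
HLA-C: gagccccgcttcatctcagtgggctacgtg
HLA-E: gagccccgcttcatctcTgtgggctacgtg
HLA-B and HLA-C were identical over these 30 nt, and HLA-E had 1 mismatch. The transporter genes share a stretch too, shown for the coding strand of an exon at chr6:32815813-32815842 of TAP1 and chr6:32798161-32798190 of TAP2.
TAP1: gaggtgacggcgctggtgggacccaatggg
TAP2: gaggtgacggcgctggtgggacccaatggg

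Across the coding sequence of the reference, 26.7% of the 30-nt windows of HLA-C (242 of 906 that lie within an exon) occurred more than once in GRCh37. The share was 24.3% for HLA-E (215 of 884) and 20.0% for HLA-B (179 of 895). HLA-B and HLA-C had 109 of these windows in common, and their longest identical run was 66 nt. TAP1 and TAP2 had 51 repeated windows each, 2.60% and 2.87% of their windows, and all 51 were shared with each other. No window of B2M, TAPBP, NLRC5 or CD274 occurred more than once at this length. A footprint from a repeated window cannot be counted as unique, so RF levels of the 3 heavy chains are less certain than those of the other members. HLA genes are highly variable between people, and how far the alleles of PANC-1 differ from the reference was not tested.

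The total RNA reads gave a second look at how reads were assigned, since the authors also deposited fragments per gene from cuffnorm, a tool that divides reads between transcripts. Counted reads per cuffnorm fragment, set to 1 at the median gene, were 1.47 ± 0.00583 (SD, n = 6) for HLA-C, above 93.6% of 12180 genes. The ratio was 0.918 ± 0.00698 for HLA-B and 0.974 ± 0.0114 for HLA-E, inside the range from the 10th to the 90th percentile, 0.854 to 1.24. The levels of HLA-C therefore depend on which assignment is used, and the reason was not tested. The other members were between 0.952 and 1.196.

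**Figure D1:**
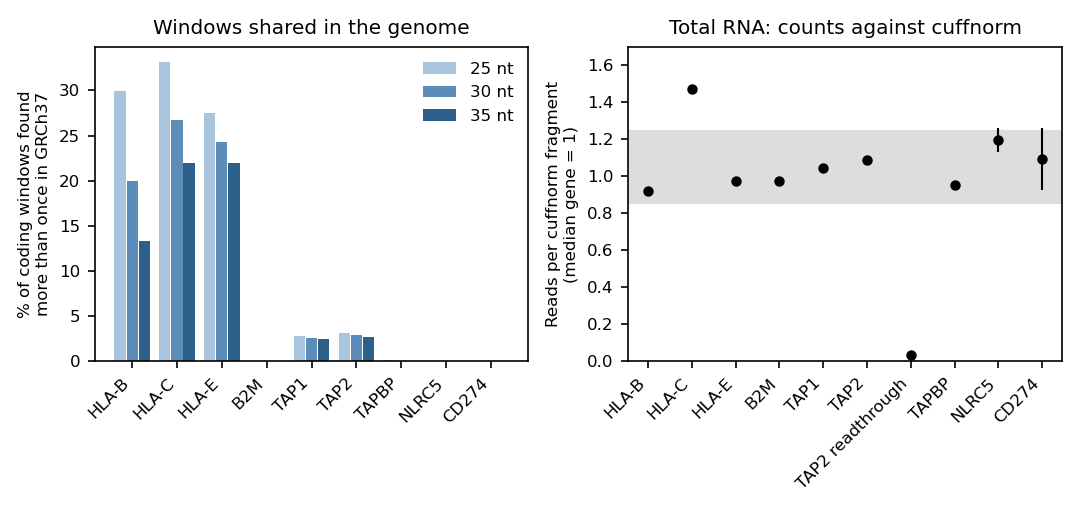
Left, share of coding windows (percent, y axis) of each member that occur more than once in GRCh37 for windows of 25, 30 and 35 nt. Right, counted total RNA reads per cuffnorm fragment relative to the median gene, mean and SD of 6 libraries, with the 10th to 90th percentile of 12180 genes in grey. At 30 nt the heavy chains lie between 20.0% and 26.7%, and HLA-C at 1.47 lies above the grey band.

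Per length, B2M was far above the other members in total RNA, with 1612 ± 50.2 FPKM (SD, n = 3) in DMSO. The heavy chains followed, with HLA-B at 78.7 ± 2.91, HLA-E at 64.5 ± 1.90 and HLA-C at 43.0 ± 1.09 FPKM. TAPBP was at 42.2 ± 1.81, TAP1 at 36.98 ± 0.996 and TAP2 at 27.1 ± 3.17 FPKM. NLRC5 was at 2.14 ± 0.442 and CD274 at 0.281 ± 0.115 FPKM. Over all 6 cultures, HLA-C and TAPBP were the only neighbours in this order whose ranges overlapped (41.8 to 45.4 and 40.9 to 47.4 FPKM). Rapamycin cultures had the same order of means.

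Footprints per kb of coding length gave a partly different order. B2M was again highest, with 2220 ± 186 RF CPM per kb in DMSO, against 116 ± 92.1 for HLA-E, 92.0 ± 14.2 for TAPBP, 90.5 ± 14.1 for HLA-C and 53.7 ± 18.8 for HLA-B. TAP2 was at 49.6 ± 21.5, TAP1 at 17.4 ± 10.7 and NLRC5 at 1.82 ± 0.188. The ranges over 6 cultures of HLA-E, TAPBP, HLA-C, HLA-B and TAP2 each overlapped that of the next, so neighbours in this order are not resolved. TAPBP and HLA-C, at 77.1 or more, were nevertheless above TAP2, at 69.4 or less, in every culture, and B2M and NLRC5 stood clear of their neighbours.

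**Figure D2:**
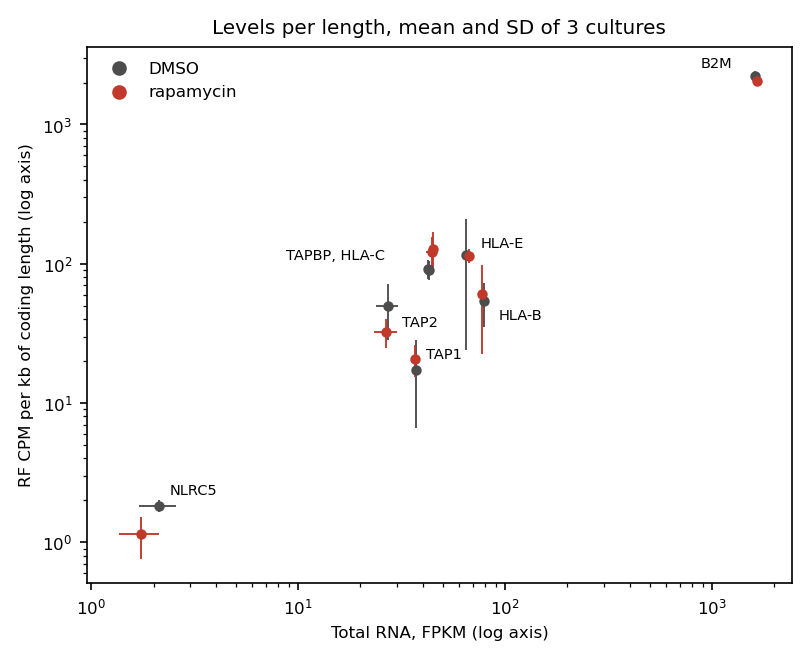
Mean RF CPM per kb of coding length (y, log axis) against mean total RNA FPKM (x, log axis) of 8 members, with SD bars over 3 cultures, for DMSO (grey) and rapamycin (red). B2M stands at the upper right, NLRC5 at the lower left, and the other 6 fall between 26.7 and 78.7 FPKM. CD274 had 0 footprints and is not drawn.

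Footprints relative to total RNA differed between members that work together. Log2 TE is the log2 ratio of RF CPM to total RNA CPM of a culture with a prior count of 2, and its median over the 13329 tested genes was -0.52 in DMSO. TAP1 was at -1.69 ± 0.77 (SD, n = 3), higher than 18.04% of the tested genes, and its partner TAP2 at -0.17 ± 0.60, higher than 59.1%. In DMSO cultures 1, 2 and 3 the log2 TE of TAP2 exceeded that of TAP1 by 1.48, 1.16 and 1.92, and in rapamycin cultures 1, 2 and 3 the difference was 1.29, 0.43 and -0.099. TAP2 was thus higher in 5 of 6 cultures, the exception being rapamycin culture 3. HLA-C was above HLA-B in 6 of 6 cultures, by 0.22 to 2.47. Both pairs were looked at after their values were seen and carry no test, and the windows repeated between HLA-B and HLA-C stand beside the second. Reads were counted over whole exons, and the coding share of the canonical transcript differed, at 2244 of 2685 nt for TAP1 and 2058 of 5643 nt for TAP2. What this does to log2 TE compared between genes, or to its rank, was not tested. Among the other members, HLA-B was at -1.04 ± 0.55, HLA-E at -0.80 ± 1.06, TAPBP at -0.33 ± 0.20 and B2M at -0.030 ± 0.064. NLRC5 was at 1.08 ± 0.24, on 3 to 15 RF counts in a DMSO library. The prior count raises log2 TE where RF counts are this low, and without it the ratio of RF CPM to total RNA CPM of NLRC5 was 1.73 ± 0.340.

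None of the 8 tested members passed the 0.05 threshold of adjusted p in RF, total RNA or TE by edgeR's quasi-likelihood test, and 0% of the 13329 tested genes passed in each comparison. No member passed an unadjusted p under 0.05 either, where 3.68% of all tested genes did for RF, 5.82% for total RNA and 12.6% for TE. DESeq2's Wald test called 0 members after adjustment, although it called 0.0375% of genes in RF, 0.218% in total RNA and 9.32% (1238 genes) in TE. Its unadjusted p was under 0.05 for 1 member, TAP2, in TE, against 2.93% of genes in RF, 6.17% in total RNA and 21.8% in TE. The fitted log2 change in RF was above 0 for 5 members and below 0 for 3, with a median of 0.057 against 0.020 over all tested genes. For TE the split was 4 and 4, with a median of 0.027 against -0.061, and for total RNA 5 and 3, with 0.029 against 0.0059. Cultures of the treatments did not overlap for 1 of the 8 members in RF CPM (NLRC5), 1 in total RNA CPM (HLA-C) and 2 in log2 TE (B2M and NLRC5). Over all tested genes 9.46%, 14.8% and 11% did not overlap, so these counts of members are near the background. The intervals of the RF changes were wide, so a missing call does not show that a gene was unaffected. Both TE tests put 1 spread per gene on RF and total RNA together, typically 24.4% in edgeR against 54.9% for RF alone. Their TE intervals may therefore be too narrow and their TE p-values too small.

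**Figure D3:**
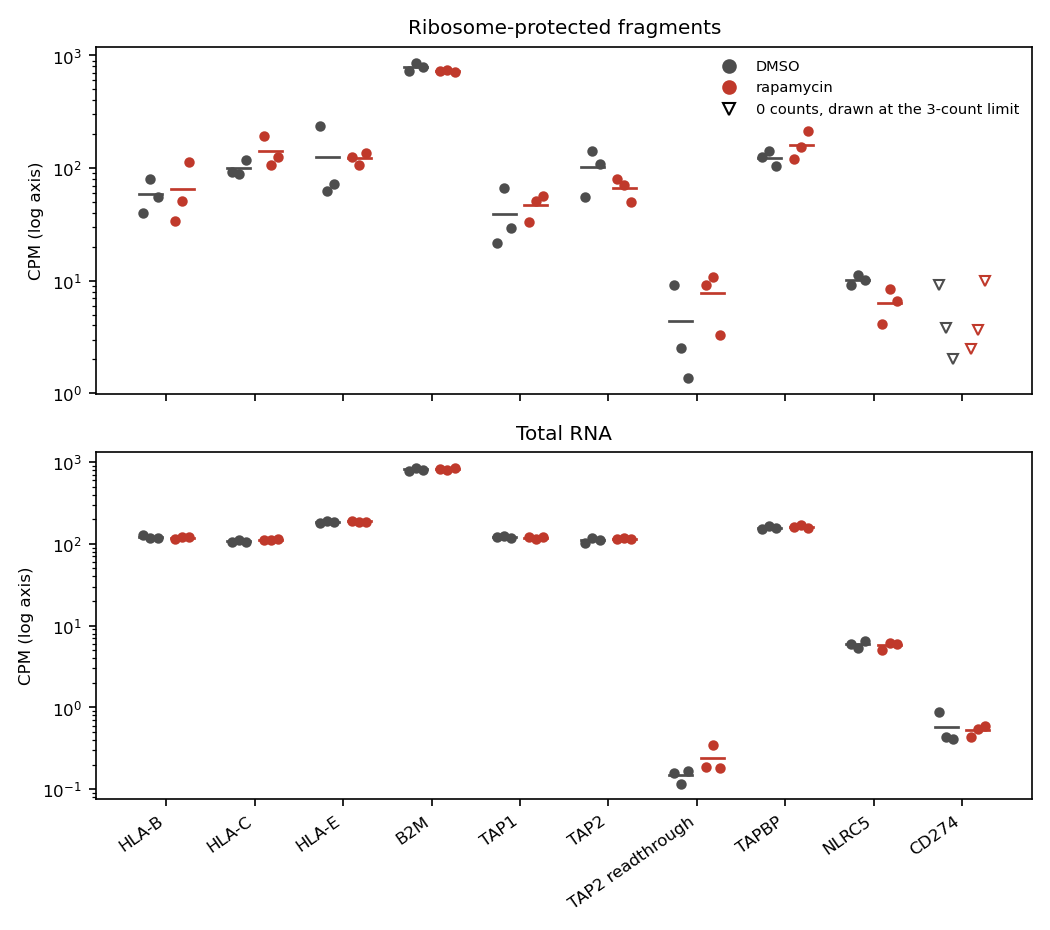
CPM (log axis) of each member in each culture for RF (upper panel) and total RNA (lower panel), DMSO in grey and rapamycin in red, with lines at the group means. Open triangles mark libraries with 0 counts, drawn at the level of 3 counts. Total RNA points of the abundant members lie within a narrow band, and RF points spread several-fold within a treatment.

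HLA-B, a classical heavy chain, had 13, 64 and 81 RF counts in DMSO cultures 1, 2 and 3, and 41, 42 and 34 in rapamycin cultures 1, 2 and 3. As RF CPM these were 39.8, 80.2 and 54.9 in DMSO and 33.9, 50.6 and 113 in rapamycin. The lowest and the highest value were both in rapamycin, so the groups overlapped fully. The log2 change in RF was 0.089 ± 0.48 (SE), with a 95% interval from 0.527- to 2.15-fold and an adjusted p near 1 in edgeR. Its direction turned without rapamycin culture 3, to -0.49, and without DMSO culture 1, to -0.098. Total RNA was 116 to 127 CPM in all cultures.

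HLA-C, the other classical heavy chain among the members, had RF CPM of 91.8, 89.0 and 117 in DMSO and of 191, 106 and 126 in rapamycin. Rapamycin culture 1, with 231 counts, was the highest, and rapamycin culture 2 lay below DMSO culture 3. The log2 change in RF was 0.51 ± 0.32, an interval from 0.888- to 2.27-fold, and without rapamycin culture 1 it was 0.19. Total RNA of HLA-C was 105, 110 and 105 CPM in DMSO and 111, 111 and 113 CPM in rapamycin. Every rapamycin culture was above every DMSO culture, as was so for 8.08% of tested genes, and the step was small. The log2 change was 0.072 ± 0.033 with an adjusted p of 0.766 in edgeR. Its unadjusted p in edgeR was 0.056, with 0.029 where at least 50 counts were required and 0.214 with no count filter. DESeq2's Wald test gave an unadjusted p of 0.064, and limma-trend on log2(FPKM + 1) gave 0.128. The exact permutation p was 0.1, the smallest that 3 cultures against 3 can give. FPKM values of HLA-C separated in the same way, at 41.8 to 43.9 in DMSO and 44.5 to 45.4 in rapamycin.

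HLA-E, a non-classical heavy chain, had RF CPM of 239, 62.7 and 72.5 in DMSO cultures 1, 2 and 3. The rapamycin cultures were at 126, 107 and 136 RF CPM. DMSO culture 1, with 303220 counts among the smaller RF libraries, stood above every other culture, and the other DMSO cultures stood below every rapamycin culture. The log2 change in RF was 0.026 ± 0.44 with all cultures. Without DMSO culture 1 it was 0.85 ± 0.36, with an unadjusted p of 0.034 and an adjusted p of 0.932 in edgeR. The TE change moved likewise from 0.086 ± 0.48 to 0.83 ± 0.24 without that culture, with an unadjusted p of 0.00596 and an adjusted p of 0.296 in edgeR. Over all settings the adjusted p of the TE change was 0.296 to 1. Total RNA of HLA-E was 181 to 189 CPM, so the spread was in the footprints.

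B2M, the light chain shared by all class I molecules, gave the tightest footprint values among the members, with 1.22-fold between the highest and lowest RF CPM. RF counts were 238, 687 and 1163 in DMSO and 880, 619 and 214 in rapamycin. As RF CPM they were 729, 861 and 788 in DMSO and 728, 745 and 708 in rapamycin, so 1 DMSO culture lay within the range of rapamycin. The log2 change in RF was -0.12 ± 0.19, with an interval from 0.693- to 1.22-fold. Log2 TE was -0.096, 0.032 and -0.024 in DMSO and -0.18, -0.11 and -0.24 in rapamycin. Each rapamycin culture was below each DMSO culture, as was so for 6.18% of tested genes, with DMSO culture 1 and rapamycin culture 2 nearly level. The fitted TE change was -0.15 ± 0.14, from 0.730- to 1.11-fold, with an adjusted p of 0.701 in edgeR.

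TAP1, the transporter subunit with fewest footprints per RNA, had 7, 53 and 43 RF counts in the DMSO cultures and 40, 42 and 17 in rapamycin. RF CPM were 21.4, 66.4 and 29.1 in DMSO and 33.1, 50.6 and 56.3 in rapamycin. DMSO cultures held both the lowest and the highest value. The log2 change was 0.21 ± 0.52 in RF and 0.16 ± 0.43 in TE, and total RNA stayed between 114 and 123 CPM.

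TAP2, its partner, had the smallest TE p of the members. RF counts were 18, 114 and 160 in DMSO and 96, 59 and 15 in rapamycin, which gave 55.1, 143 and 108 RF CPM in DMSO and 79.4, 71.0 and 49.6 in rapamycin. DMSO cultures 2 and 3 were above all rapamycin cultures, and DMSO culture 1 lay among them. Total RNA was 103, 117 and 110 CPM in DMSO and 114, 118 and 115 in rapamycin. The log2 change was -0.61 ± 0.39 in RF, from 0.370- to 1.16-fold, and -0.69 ± 0.36 in TE, with an unadjusted p of 0.075 and an adjusted p of 0.448 in edgeR. DESeq2's Wald test gave a TE change of -0.70 with an adjusted p of 0.122, and adjusted p over all settings was 0.122 to 1. Leaving out DMSO culture 1 gave a TE change of -0.88, with an unadjusted p of 0.0166 and an adjusted p of 0.333 in edgeR. The TE change was below 0 in each of the 15 settings fitted.

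TAPBP, the tapasin gene, had RF CPM of 126, 142 and 104 in DMSO and of 121, 153 and 212 in rapamycin. Rapamycin culture 3 was the highest and the other rapamycin cultures overlapped DMSO. The log2 change was 0.38 ± 0.30 in RF, from 0.834- to 2.02-fold, and 0.31 ± 0.28 in TE. Without rapamycin culture 3 the RF change was 0.15.

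NLRC5, the class I transactivator, had few footprints. RF counts were 3, 9 and 15 in DMSO and 5, 7 and 2 in rapamycin. As RF CPM these were 9.18, 11.3 and 10.2 in DMSO and 4.13, 8.43 and 6.62 in rapamycin, so the groups did not overlap after scaling, as was so with rapamycin below for 4.22% of tested genes. Log2 TE was 0.94, 1.36 and 0.94 in DMSO and 0.37, 0.81 and 0.58 in rapamycin. The fitted log2 change was -0.69 ± 1.001 in RF and -0.74 ± 0.53 in TE, with an interval from 0.272- to 1.32-fold for TE and an adjusted p of 0.599 in edgeR. With variance fitted by library type (voom), the TE change was -0.69 ± 0.91. Counting error alone was large here, since 3 counts have an exact Poisson 95% interval from 0.619 to 8.77 counts. Total RNA of NLRC5 was 5.05 to 6.56 CPM.

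**Figure D4:**
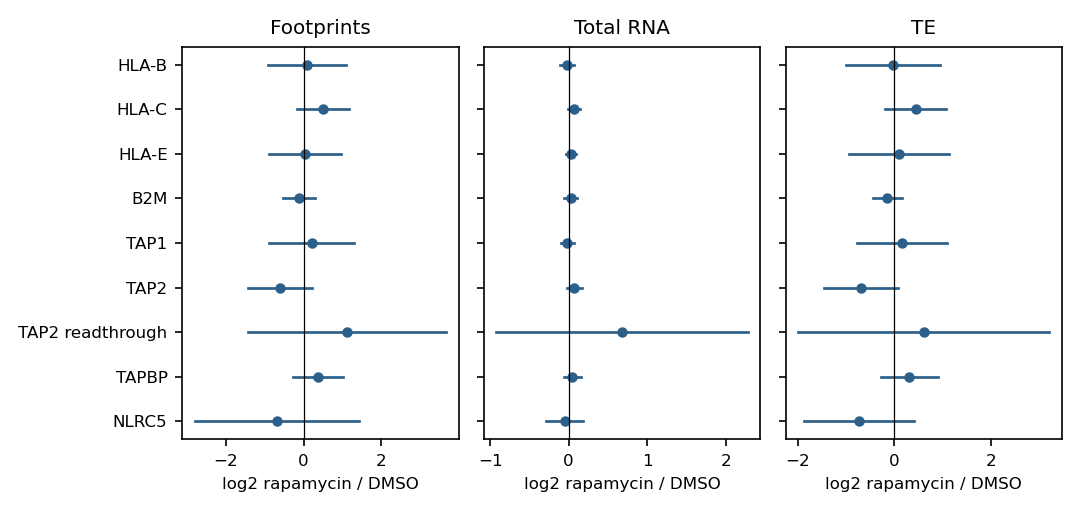
Log2 change from DMSO to rapamycin (x axis, a different scale in each panel) with 95% intervals from edgeR for footprints, total RNA and TE of the 8 tested members and the readthrough row named TAP2. Each interval includes 0. RF intervals of NLRC5 and the readthrough row, which rest on few counts, are the widest.

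CD274, which encodes PD-L1, had 0 RF counts in each of the 6 RF libraries. Together these libraries held 5086249 counts. The limit of 3 counts was thus 0.607 CPM over all of them after scaling, about the 0.552 CPM at which its total RNA was found. Total RNA counts were 83, 41 and 37 in DMSO and 39, 43 and 51 in rapamycin, or 0.885, 0.439 and 0.418 CPM against 0.434, 0.551 and 0.588 CPM. DMSO culture 1 was the highest, and the other cultures of both treatments overlapped. With no count filter, the log2 change in total RNA was -0.17 ± 0.45, with an adjusted p of 0.872 in edgeR. Of 1215 genes within the same total RNA range, 139 (11.4%) also had 0 RF counts, and the median gene had 7 RF counts. At the median RF to total RNA ratio of tested genes, the 294 total RNA counts of CD274 would go with 1.87 RF counts. A TE change of CD274 was therefore not detectable at this depth, and no TE value is given.

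The second row named TAP2 belongs to ENSG00000250264 (chr6:32781544-32806599, minus strand). It is treated here as a readthrough gene, and the annotation types it as protein coding. Of its 2705 exonic nt, 2023 are also exons of TAP2, and 83, at chr6:32806517-32806599, are in no other coding gene. Its counts were 15, 11 and 15 in DMSO and 17, 27 and 16 in rapamycin for total RNA, and 3, 2 and 2 in DMSO and 11, 9 and 1 in rapamycin for RF. Total RNA CPM separated with rapamycin above, at 0.118 to 0.169 against 0.184 to 0.346, as was so for 8.08% of tested genes. Its FPKM overlapped, at 1.10 to 2.27 in DMSO and 1.54 to 2.92 in rapamycin. The log2 change in total RNA was 0.68 ± 0.71 with an adjusted p of 0.791 in edgeR. Counted reads per cuffnorm fragment were 0.0342 of the median gene, so nearly all fragments that cuffnorm gave this gene were not counted for it. The TAP2 values above are those of ENSG00000204267. How reads that overlap both genes were counted is not given in the sources used here, and what this does to the RF, TE and difference from TAP1 of TAP2 was not tested. In total RNA, counted reads per cuffnorm fragment of TAP2 were 1.09 ± 0.0191 (SD, n = 6).

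How alike the members were was described across libraries. Over the 6 RF libraries, Pearson's r of log2 RF CPM between members ranged from -0.92 (HLA-C and NLRC5) to 0.94 (B2M and TAP2), as a description only. The points share libraries of different depth and hold both treatments. By this measure the 3 heavy chains were not alike, with r of -0.32 for HLA-B and HLA-C, -0.35 for HLA-B and HLA-E and 0.071 for HLA-C and HLA-E.

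Leaving out 1 culture at a time showed which members' directions rest on a single culture. The RF change ranged from -0.88 to -0.32 for TAP2, from -0.18 to -0.069 for B2M and from 0.19 to 0.68 for HLA-C. For HLA-E it ranged from -0.30 to 0.85, for HLA-B from -0.49 to 0.41 and for TAP1 from -0.040 to 0.80, so no direction can be given for these genes. The other members kept their sign, but these fits share most of their cultures and each RF interval with all cultures included 0. No direction is therefore established for any member.

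**Figure D5:**
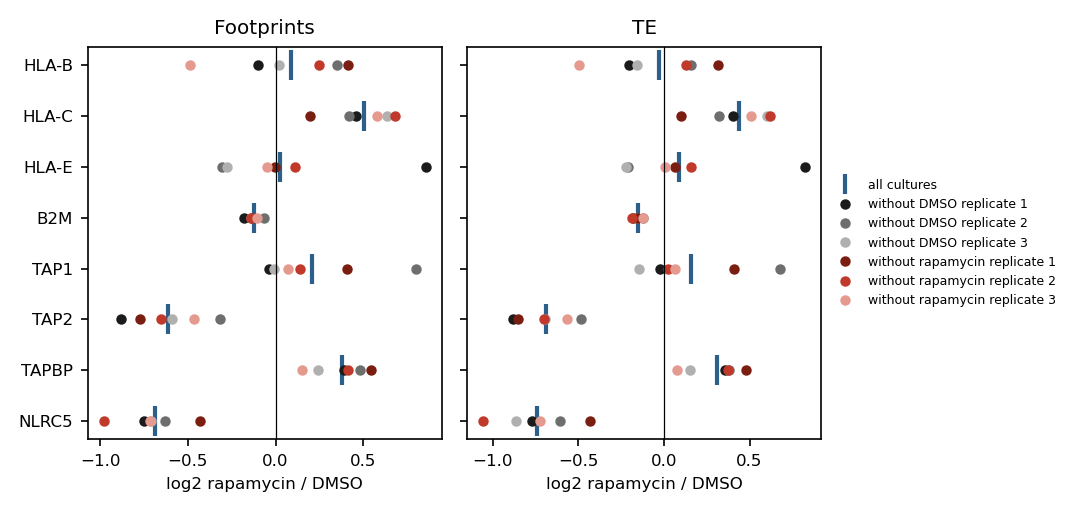
Log2 change from DMSO to rapamycin (x axis) of the 8 tested members in footprints and TE with all cultures (blue bar) and without each culture in turn (points). HLA-E reaches 0.85 in footprints without DMSO replicate 1, while TAP2, B2M, HLA-C, TAPBP and NLRC5 keep their sign in each of the 6 fits.

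The start of the mRNA was described because mRNAs whose translation depends most on mTORC1 begin with a terminal oligopyrimidine (TOP) motif, a C followed by a run of pyrimidines. The first 15 nt of the Ensembl canonical transcript in the GENCODE annotation of GRCh37 are given for 4 members, in transcript sense, with capitals marking a pyrimidine run that starts at the first base with C.
HLA-E: CTCaggactcagagg
B2M: attcctgaagctgac
HLA-C: acattctccccagag
TAP2: agagccggtagcgag
HLA-E was the only member that began with C, followed by 2 more pyrimidines. None of the 9 members had C followed by at least 4 pyrimidines, searched in transcript sense at the first base only, against 697 of 13066 tested genes with an annotated transcript (5.33%). The annotated start need not be the start used in PANC-1.

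The genes around this pathway were taken from lists of known function. By edgeR, 0 of 18 peptide processing and loading partners passed an adjusted p under 0.05 in RF, total RNA or TE. Since 0% of all tested genes passed, this is no result about the list. DESeq2's Wald test called some list genes in TE, which are counted further below. The median TE change of the partners was 0.17. The 2 with the smallest TE p had fitted changes of opposite sign. PSMB10, an immunoproteasome subunit, had 15, 19 and 11 RF counts in the DMSO cultures and 54, 28 and 26 in rapamycin, with a TE change of 1.42 ± 0.48 and an adjusted p of 0.262 in edgeR. ERAP1, which trims peptides in the endoplasmic reticulum, had 20, 74 and 156 RF counts in the DMSO cultures and 82, 39 and 5 in rapamycin, with -0.91 ± 0.39 and an adjusted p of 0.356. For both genes RF CPM of the treatments overlapped.

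Of 27 genes of interferon signalling and class I transactivation, 25 were tested and 0 passed in any comparison by edgeR. Their median TE change was 0.25. NFYB, a subunit of the NF-Y factor that binds class I and class II promoters, had 1, 39 and 30 RF counts in the DMSO cultures and 1, 3 and 2 in rapamycin. DMSO culture 1 was as low as the rapamycin cultures, and the TE change of -3.29 ± 0.87 had an adjusted p of 0.231 in edgeR. IFIT3, an interferon-induced gene, had a TE change of 0.95 ± 0.38 with an adjusted p of 0.340.

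Of 21 checkpoint ligands and genes that handle PD-L1, 16 were tested and 0 passed by edgeR. Their median TE change was 0.17. STUB1, a ubiquitin ligase, had RF CPM of 39.8, 28.8 and 51.5 in DMSO and 62.0, 77.0 and 126 in rapamycin. The rapamycin cultures were above the DMSO cultures in RF CPM and in TE, as was so for 5.24% and 4.78% of tested genes, and the TE change was 1.09 ± 0.41 with an adjusted p of 0.309 in edgeR. PVRL2, also called nectin-2 and a ligand of T and NK cell receptors, had a TE change of 0.65 ± 0.40 with an adjusted p of 0.529.

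The remaining lists had few tested genes and 0 that passed by edgeR. Of 8 other class I and class I-like chains, 6 were tested, with a median TE change of 0.24. MR1, which presents vitamin B metabolites, had 4, 15 and 7 RF counts in the DMSO cultures and 0, 2 and 2 in rapamycin. Its RF CPM overlapped, at 4.74 in DMSO culture 3 and 6.62 in rapamycin culture 3. The TE change of MR1 was -2.83 ± 1.01, with an adjusted p of 0.284 in edgeR. FCGRT, the neonatal Fc receptor chain, had 0.85 ± 0.69. Of 10 NK cell ligands 3 were tested, with a median TE change of 0.89, among them MICB at 0.89 ± 0.50 and ULBP1 at 0.90 ± 1.07. Of 10 class II genes 4 were tested, with a median TE change of -0.29, 1 gene above 0 and 3 below. HLA-DMA was at 0.56 ± 1.09. CIITA, the class II transactivator, had 22, 38 and 55 RF counts in the DMSO cultures and 80, 38 and 12 in rapamycin although its mean total RNA was 0.571 CPM in DMSO and 0.898 CPM in rapamycin. Its TE change was -0.37 ± 0.45.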

How the data were processed

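RF and total RNA came from 3 DMSO and 3 rapamycin cultures of PANC-1, grouped by their labels. The authors deposited raw counts: RF reads were quality filtered, linker trimmed and cleared of ribosomal RNA, reads were aligned to GRCh37 with HISAT2, and featureCounts counted the reads with a unique alignment to exons of coding genes. Its settings for strand and for reads that overlap several genes are not given in the sources used here. The authors also deposited FPKM values of genes and isoforms of total RNA and a normalized signal per gene (fragments over a size factor), made with cuffnorm of Cufflinks 2.2.1. The count table also holds the authors' own TE comparison (RiboDiff ratios, fold changes and p-values), which was not used, nor were the isoform fragment values.

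The tools were edgeR 4.0.16, DESeq2 1.42.0 and limma 3.58.1 (R 4.3.3), and scipy 1.17.1 and pandas 2.3.3 (Python 3.11.15). Libraries were scaled by TMM within each type, and genes with at least 10 counts summed over RF and at least 10 over RNA were tested with edgeR's robust quasi-likelihood test, with TE as the interaction of library type and treatment. P-values were adjusted by Benjamini-Hochberg across the 13329 genes. RiboDiff was not used here. An exact permutation test (two-sided, no p below 0.1 possible) compared values per culture. The scripts' tests were tested on simulated counts. Sequences, windows and transcript starts were read from GRCh37 with a GENCODE annotation that may differ from the authors'.

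The alternatives were DESeq2's size factors and Wald test, other count filters, a replicate or culture block, TMM over all libraries, voom, limma-trend on log2(FPKM + 1) and log2(FPKM + 0.1), other window lengths and prior counts, and leaving out each culture. The named genes are the members and, from each list, the 2 with the smallest TE p. Members and lists were chosen with earlier results of these data known.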

Additional observations from a re-analysis of the deposited data

How the results depend on the processing

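The number of members called at an adjusted p under 0.05 was 0 for RF, total RNA and TE under each alternative. Over all genes, where 0 were called in each comparison, DESeq2's Wald test called 5 in RF, 29 in total RNA and 1238 in TE. The 1238 were 9.32% of genes. Of them 7 were in the pathway lists, whose tested genes numbered 18, 6, 25, 16, 3 and 4. The 7 are not read as a result about the lists. Using no count filter called 20 in RF. Limma-trend on FPKM called 3 in total RNA with a pseudocount of 1, 4 with 0.1 and 5 with no minimum FPKM. Leaving out a culture called 0 to 6 genes in RF, 0 to 881 in total RNA and 0 to 444 in TE, and 0 to 1 list genes in total RNA and 0 to 3 in TE. The 881 and the 444 came without DMSO replicate 3, where 0 members were called. The cause was not tested.

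Deviations of DMSO and rapamycin libraries with the same number correlated at -0.12 to -0.061 in RF and -0.22 to -0.11 in total RNA. Libraries with different numbers correlated at -0.021 to 0.091 in RF and -0.13 to 0.19 in total RNA. These values showed no pairing by number, but with 3 libraries in a group they cannot settle whether the treatments were paired. The replicate block called 6 genes in RF and 1 in TE, and no member.

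Some directions turned. The total RNA change of TAP2 was -0.020, -0.021 and -0.020 by limma-trend on log2(FPKM + 1), on log2(FPKM + 0.1) and with no minimum. The TE change of HLA-B was 0.063 by DESeq2, 0.085 with the replicate block and 0.0030 with the culture replicate block, and that of HLA-E was -0.012 by DESeq2. Without a culture in turn, the RF change was -0.49 to 0.41 for HLA-B, -0.30 to 0.85 for HLA-E and -0.040 to 0.80 for TAP1. The TE change was -0.50 to 0.31 for HLA-B, -0.22 to 0.83 for HLA-E and -0.14 to 0.68 for TAP1. The total RNA change was -0.047 to 0.023 for HLA-B, -0.039 to 0.0094 for TAP1 and -0.13 to 0.030 for NLRC5.

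Windows of 25 and 35 nt put the repeated share at 29.9% and 13.3% for HLA-B, 33.2% and 21.9% for HLA-C and 27.5% and 21.9% for HLA-E. RF depth limits NLRC5, with 2 to 15 counts a library, and CD274, with 0.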

Other observations

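The share of gene FPKM given to the canonical transcript differed between members in total RNA. It was 89.1% to 94.3% for HLA-B and 92.0% to 95.6% for HLA-E over the 6 cultures, 47.7% to 75.4% for HLA-C and 36.4% to 47.1% for TAP2. For CD274 it was 18.4% to nearly all of the FPKM, on 37 to 83 counts a library. The transcripts used for B2M and NLRC5 were not among the isoforms matched.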
